A study of Homo sapiens with 9 samples.

Results

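The genes described here are 39 genes of peroxisomes and of fatty acid oxidation, listed by symbol and found in the count table through their Ensembl identifiers, and 37 of them were tested because they had at least 10 counts in at least 3 libraries. The table holds 63187 genes, of which 16030 passed the same filter. The RNA came from BEAS-2B, an immortalized line of human bronchial epithelial cells grown with fetal bovine serum. Control cells were left untreated, PG/VG cells received condensed aerosol of propylene glycol and vegetable glycerine, the carrier liquid, and EC cells received condensate from an e-cigarette with Virginia tobacco flavor and 18 mg/mL nicotine. Both condensates were used for 24 h at a 2% (v/v) dilution, and each condition has 3 libraries, numbered 2, 3 and 4 after the batch. EC thus differs from PG/VG at least in nicotine and flavor together, and the carrier ratio of the EC liquid is not given. A single cell line stands for the bronchial epithelium, and all 3 conditions share the line and its serum medium.

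Peroxisomes are small organelles that import their enzymes from the cytosol through proteins called peroxins. They carry out alpha-oxidation, which removes 1 carbon from methyl-branched fatty acids such as phytanic acid, and they start beta-oxidation of very long and branched chains, with hydrogen peroxide as a by-product that catalase removes. Shorter chains are finished in mitochondria, which long chains enter as carnitine esters, and the electrons of the acyl-CoA dehydrogenases reach the respiratory chain through electron transfer flavoprotein.

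The gene counts summed to between 16168260 and 24917838 per library, with 16168260 to 17882770 in the controls, and precision depends on these depths. Values per library are in CPM, counts relative to the total of the library after scaling by edgeR's TMM method, and LFC is the fitted log2 fold change with the batch as a term of the model, given with its standard error (SE). A gene was called when its p in edgeR's quasi-likelihood test, adjusted by the Benjamini-Hochberg method over all 16030 genes, was under 0.05. The cells expressed the keratins KRT7, KRT8 and KRT18 at 301.3 CPM or more in every library. KRT19, of the same list, was lower, as given below with batch 4. The epithelial adhesion genes EPCAM and CDH1 stayed at or below 1.93 CPM, the basal cell genes KRT5 and TP63 at or below 0.318 CPM, and the mesenchymal genes VIM, CDH2 and FN1 at 247.3 CPM or more. COL1A1 and PDGFRB, of the same mesenchymal list, are given a level only within the sum of its 5 markers below. Another basal cell gene, NGFR, a neurotrophin receptor, was at 3.72 to 14.4 CPM and was called higher in EC vs. control (LFC 1.25, adjusted p = 3.28e-05) and with PG/VG alone (LFC 0.92, adjusted p = 0.00309). The leukocyte genes PTPRC, CD3E and LYZ were at or below 0.257 CPM. CD14, of the same list, was at 3.07 to 8.89 CPM, with an LFC of 0.45 in EC (adjusted p = 0.0908) and 0.57 in PG/VG (adjusted p = 0.0626) against control. Of 24 cell type markers 14 were tested, and 7 were called in EC vs. control, where 13.5% of all genes were. NGFR and PDGFRB (LFC 0.25) were higher, and KRT7 (−0.45), KRT8 (−0.25), KRT18 (−0.46), CDH2 (−0.25) and FN1 (−0.58) were lower. The other 3 epithelial markers had LFCs above 0, up to 0.57, and were not called. The 6 epithelial markers summed to 1776 to 2844 CPM in the control, 1721 to 2737 CPM in the PG/VG and 1460 to 2287 CPM in the EC libraries. The 5 mesenchymal markers summed to 5047 to 7031, 4656 to 6747 and 3561 to 5471 CPM. The 3 endothelial markers summed to 5.15 to 7.77, 4.51 to 6.43 and 4.24 to 5.70 CPM. The 1 of them tested had an LFC of −0.44 in EC vs. control and was not called. The 3 secretory and ciliated markers summed to at most 0.992 CPM in any library, and none was tested. In PG/VG vs. control 4 of the 14 were called (NGFR, COL1A1 and PDGFRB higher and VIM lower), where 4.54% of all genes were, and in EC vs. PG/VG 2 (KRT7 and FN1, lower), where 0.855% were. The part of these markers in the differences below was not tested. In a bulk sample, fewer cells that express a gene and less RNA per cell cannot be told apart.

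PHYH was upregulated in both treatments against the control and in EC vs. PG/VG, and it was the member with the smallest p in each of these comparisons. ACADM and ETFA were downregulated in EC vs. control. The other 34 tested genes passed the threshold in none of the 3 comparisons. EC vs. control thus called 3 of 37 members (8.11%), 1 higher and 2 lower, where 13.5% of all genes tested were called, 8.07% higher and 5.38% lower. In PG/VG vs. control PHYH was the 1 member called (2.7%), where 4.54% of all genes were called, 2.63% higher and 1.9% lower. In EC vs. PG/VG PHYH was again the 1 member called, where 0.855% of all genes were called, 0.555% higher and 0.299% lower.

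The window around the start of transcription is shown for both genes of alpha-oxidation, PHYH and HACL1, because they act in 1 pathway and their levels moved differently. Each has 250 bases before the RefSeq start and 50 from it on, is written 5′ to 3′ on the gene's strand and comes from RefSeq on GRCh38.p14. PHYH lies at chr10:13299714-13300013 and HACL1 at chr3:15601520-15601819, both on the minus strand. Capitals mark GCGTG, the core recognised by the aryl hydrocarbon receptor, or its reverse complement CACGC. This core was added to the search after results of these data were known.
PHYH: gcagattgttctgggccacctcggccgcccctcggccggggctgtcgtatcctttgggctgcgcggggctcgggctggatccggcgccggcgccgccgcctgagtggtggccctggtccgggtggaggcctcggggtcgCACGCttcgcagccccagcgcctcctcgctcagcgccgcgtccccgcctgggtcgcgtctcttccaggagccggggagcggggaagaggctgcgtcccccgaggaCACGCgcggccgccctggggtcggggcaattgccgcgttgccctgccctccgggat
HACL1: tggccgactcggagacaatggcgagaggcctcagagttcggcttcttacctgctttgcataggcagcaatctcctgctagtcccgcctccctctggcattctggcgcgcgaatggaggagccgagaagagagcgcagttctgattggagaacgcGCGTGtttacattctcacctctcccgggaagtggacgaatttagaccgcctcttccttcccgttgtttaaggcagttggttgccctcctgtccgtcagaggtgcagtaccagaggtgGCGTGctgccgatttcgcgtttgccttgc
The PHYH window is 76.0% G and C and holds the core in 2 places, both before the start. The HACL1 window is 57.7% G and C and also holds it in 2 places. The core is common, with a match on either strand in 36.5% of 35116 RefSeq windows and in 16 of the 32 members' windows that were found, so its presence does not set PHYH apart. Each member was read in 1 window, the first listed, while the 36.5% covers all windows. The PHYH window ends at base 13300013, inside the annotated gene, which reaches base 13302412. Bases nearer that end of PHYH were not searched.

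Longer elements of known regulators of fatty acid oxidation were rare in these windows. The DR1 element of PPAR and RXR, AGGTCA and AGGTCA with any 1 base between them, matched in none of the 32 windows and in 0.0228% of all windows. The estrogen-related receptor element TCAAGGTCA, whose last 6 letters are those repeated in the DR1 element, also matched in none, against 0.353% of all windows. The E-box CACGTG, which TFEB binds, matched in PEX10 and PLIN2 and in 7.26% of all windows. The FOXO element TGTTTAC matched in HACL1, where it overlaps 1 of the marked cores, and in 3.42% of all windows. All were searched on both strands, and a match or its absence describes only the letters of these windows.

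PHYH encodes phytanoyl-CoA 2-hydroxylase, the enzyme that starts alpha-oxidation and whose loss causes Refsum disease. The gene (ENSG00000107537) lies on chromosome 10, bases 13277796 to 13302412 on the minus strand of GRCh38, and none of its exon length overlaps another annotated gene. PHYH was at 15.6, 15.1 and 27.0 CPM in control replicates 2, 3 and 4. The PG/VG replicates had 21.5, 21.1 and 40.9 CPM. The EC replicates had 34.3, 31.2 and 48.1 CPM. Every EC library was above every control library, the PG/VG range overlapped both of the others, and within each batch the order was control, PG/VG and EC.

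In EC vs. control the LFC of PHYH was 1.0 (SE 0.0959, adjusted p = 7.86e-07), a 2.00-fold rise with a 95% interval of the LFC from 0.80 to 1.20. Within batches 2, 3 and 4 the log2 difference was 1.13, 1.05 and 0.83. An absolute LFC above that of PHYH was found in 2.80% of all genes tested. In PG/VG vs. control the LFC was 0.52 (SE 0.0975, adjusted p = 0.00315), with 0.46, 0.49 and 0.60 within the batches. In EC vs. PG/VG it was 0.48 (SE 0.0910, adjusted p = 0.00854), with 0.67, 0.56 and 0.23 within the batches. Comparisons that share a group are not independent, and EC vs. control is the sum of the other fitted differences.

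The rise of PHYH in EC vs. control passed the threshold with each of the 9 libraries left out in turn, with an LFC from 0.91 to 1.10. The call in PG/VG vs. control was lost without PG/VG replicate 4 (LFC 0.41, adjusted p = 0.0624). The call in EC vs. PG/VG was lost without PG/VG replicate 2 (LFC 0.42, adjusted p = 0.174) and without EC replicate 2 (LFC 0.40, adjusted p = 0.0878). Without the replicate block the LFC of PHYH was 0.97 in EC vs. control (adjusted p = 0.299), 0.53 in PG/VG vs. control (adjusted p = 0.782) and 0.44 in EC vs. PG/VG (adjusted p = 1.0), so no call was left.

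**Figure D1:**
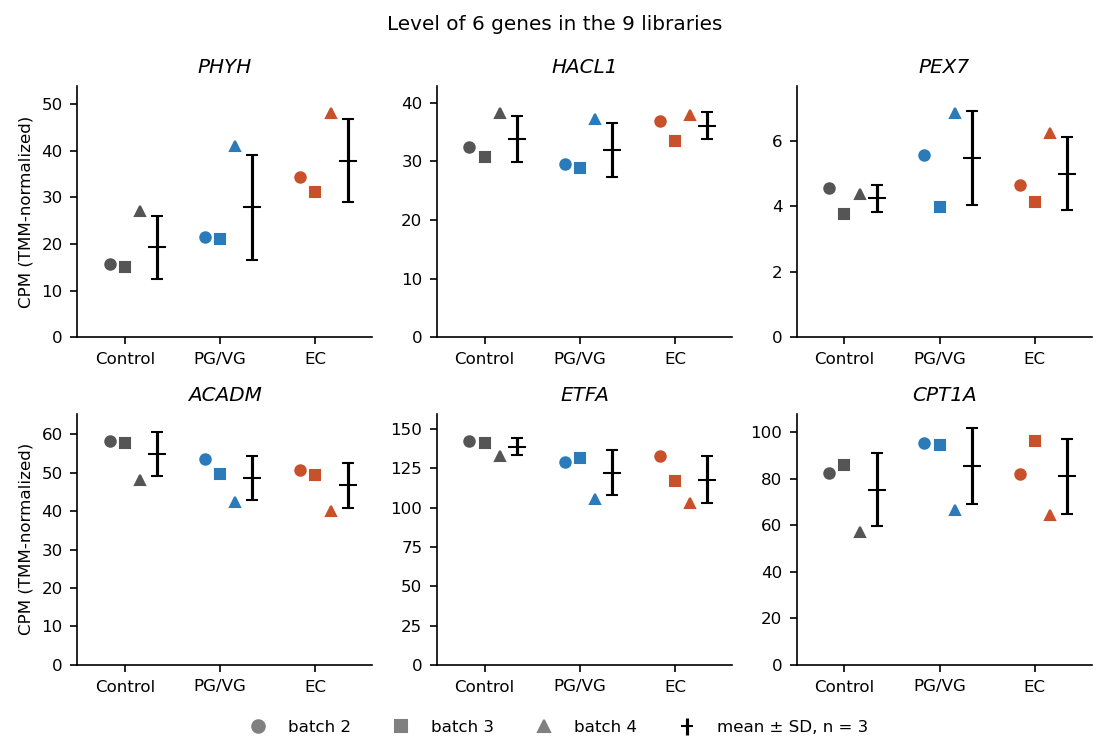
Level in CPM (vertical axes from 0) of PHYH, HACL1, PEX7, ACADM, ETFA and CPT1A in the 9 libraries, by condition, with a symbol for each batch and black bars for the mean ± SD of 3 replicates. PHYH rises from control to PG/VG to EC within every batch, and its batch 4 library is the highest of each condition.

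HACL1, the lyase that splits the product of PHYH, did not pass the test. It was at 32.5, 30.7 and 38.3 CPM in the control, 29.6, 28.9 and 37.2 CPM in the PG/VG and 36.9, 33.4 and 37.9 CPM in the EC replicates, and all 3 ranges overlapped. The LFC was 0.10 in EC vs. control (adjusted p = 0.486), −0.09 in PG/VG vs. control (adjusted p = 0.62) and 0.19 in EC vs. PG/VG (adjusted p = 0.34). The 95% interval in EC vs. control reached from −0.07 to 0.27, below the whole interval of PHYH. Exons on the other strand overlap 15.4% of the exon length of HACL1, and the strand setting of the counting is not given in the sources used here. AMACR, the racemase that prepares branched acyl-CoA for beta-oxidation, had 0 to 5 counts per library and was not tested. Exons of genes on the same strand overlap 72.3% of its exon length, and reads on more than 1 gene were not counted. The count of 0 in control replicate 3 allows a level of up to 0.180 CPM (3 counts, for counting error only).

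Of 11 peroxins of import and assembly, none passed the test in any comparison. PEX2, a ring-finger peroxin of the ubiquitin ligase that recycles import receptors, was at 25.7, 28.1 and 28.5 CPM in the control, 27.1, 26.3 and 30.9 CPM in the PG/VG and 34.6, 30.8 and 30.7 CPM in the EC replicates. Its EC libraries lay above its control libraries, with an LFC of 0.22 (SE 0.0917, adjusted p = 0.114) and 0.19 in EC vs. PG/VG (adjusted p = 0.374). With library size as the only scaling the LFC of PEX2 in EC vs. control was 0.28 and passed the threshold (adjusted p = 0.0397). PEX7, the receptor that imports PHYH and the thiolase ACAA1 by their amino-terminal signal, was at 4.57, 3.78 and 4.39 CPM in the control and 5.57, 3.99 and 6.86 CPM in the PG/VG replicates. The EC replicates of PEX7 had 4.64, 4.13 and 6.25 CPM, and the groups overlapped. The LFC of PEX7 was 0.23 in EC vs. control (adjusted p = 0.407) and 0.36 in PG/VG vs. control (adjusted p = 0.225), on 61 to 160 counts per library. PEX19, the chaperone of peroxisomal membrane proteins, had its lowest LFC in PG/VG vs. control, at −0.15 (adjusted p = 0.281). PEX5, the receptor for the carboxy-terminal signal used by most peroxisomal enzymes, had an LFC of −0.13 in EC vs. control (adjusted p = 0.344). With the trend on GC content and length removed it was −0.23 and passed the threshold (adjusted p = 0.0292). In EC vs. control, PEX3 and PEX16, which act with PEX19 in the membrane, PEX6, an ATPase of receptor export, PEX10, another ring-finger peroxin, PEX11A of organelle division, and PEX13 and PEX14 of the docking complex had LFCs from −0.10 to 0.06.

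None of 7 tested enzymes of peroxisomal beta-oxidation passed the test either. DECR2, the peroxisomal reductase for unsaturated chains, was at 12.7, 12.3 and 11.7 CPM in the control, 14.8, 15.9 and 9.61 CPM in the PG/VG and 16.9, 14.3 and 14.5 CPM in the EC replicates. Its EC libraries lay above all controls, with an LFC of 0.31 (SE 0.126, adjusted p = 0.11). ECI2, an isomerase of unsaturated chains, was at 44.9, 44.03 and 46.8 CPM in the control, 37.3, 42.4 and 37.5 CPM in the PG/VG and 47.0, 40.0 and 35.7 CPM in the EC replicates. The PG/VG libraries lay below all controls, with an LFC of −0.22 (SE 0.0917, adjusted p = 0.186). In EC vs. control the LFC of ECI2 was −0.15 (adjusted p = 0.312), and without EC replicate 2 it was −0.29 and passed the threshold (adjusted p = 0.0448). ACAA1, the peroxisomal thiolase, had an LFC of 0.12 in EC vs. control (adjusted p = 0.46) and 0.18 in EC vs. PG/VG (adjusted p = 0.439). HSD17B4, the bifunctional enzyme of branched chains, and SCP2, a thiolase and sterol carrier, had LFCs of 0.06 and 0.01 in EC vs. control. The oxidase ACOX3 had −0.02, and ACOX2, the oxidase of branched chains and bile acid precursors, had 0.33 on only 4 to 20 counts per library, with a 95% interval from −0.69 to 1.36. Exons on the other strand overlap 39.1% of the exon length of PEX10, 29.8% of ECI2 and 19.7% of ACAA1. CAT, catalase, was at 39.3, 37.5 and 32.7 CPM in the control and 42.5, 39.8 and 26.9 CPM in the EC replicates, and its LFC of −0.02 (adjusted p = 0.922) had an interval from −0.20 to 0.16.

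In mitochondrial beta-oxidation, ACADM was downregulated in EC vs. control, and the other 8 genes did not pass the test. ACADM (ENSG00000117054), the medium-chain acyl-CoA dehydrogenase, lies on chromosome 1, bases 75724431 to 75787575 on the plus strand. It was at 58.3, 57.8 and 48.2 CPM in the control, 53.7, 49.7 and 42.5 CPM in the PG/VG and 50.7, 49.4 and 39.9 CPM in the EC replicates. EC was below control in each batch, by log2 differences of −0.20, −0.23 and −0.27, and the group ranges overlapped because batch 4 was low in each condition. The LFC was −0.23 (SE 0.0741, adjusted p = 0.0387). Of all genes tested, 35.1% had a larger absolute LFC. In PG/VG vs. control the LFC was −0.17 (adjusted p = 0.189) and in EC vs. PG/VG −0.06 (adjusted p = 0.80, 95% interval −0.21 to 0.09).

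ETFA (ENSG00000140374), the alpha subunit of electron transfer flavoprotein, takes electrons from ACADM and the other acyl-CoA dehydrogenases and lies on chromosome 15, bases 76188555 to 76311730 on the minus strand. It was at 142.6, 140.9 and 132.7 CPM in the control, 128.9, 131.8 and 105.7 CPM in the PG/VG and 133.1, 116.8 and 103.1 CPM in the EC replicates. Every PG/VG library was below every control library, while EC replicate 2 lay just above control replicate 4. In EC vs. control the LFC was −0.24 (SE 0.0725, adjusted p = 0.0278), with −0.10, −0.27 and −0.36 within the batches. In PG/VG vs. control it was −0.19 (adjusted p = 0.137) and in EC vs. PG/VG −0.05 (adjusted p = 0.818). The partner subunit ETFB and the oxidoreductase ETFDH, which passes the electrons on to ubiquinone, had LFCs of −0.08 (adjusted p = 0.678) and −0.13 (adjusted p = 0.438) in EC vs. control.

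Both falls lay close to the threshold. The call of ACADM was lost on leaving out any 1 of the control or EC libraries or PG/VG replicate 2, with adjusted p from 0.0504 to 0.168 and LFCs from −0.26 to −0.22. The call of ETFA was lost without control replicate 3 (LFC −0.27, adjusted p = 0.0763), control replicate 4 (−0.18, adjusted p = 0.17), EC replicate 3 (−0.21, adjusted p = 0.13) or EC replicate 4 (−0.23, adjusted p = 0.105). With library size as the only scaling, ACADM had an LFC of −0.17 (adjusted p = 0.126) and ETFA −0.18 (adjusted p = 0.0929), and neither was called. ACADM also lost its call with no filter on low counts (LFC −0.22, adjusted p = 0.103). It was lost as well with the 2 groups compared alone (LFC −0.23, adjusted p = 0.0567).

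The remaining genes of mitochondrial oxidation changed little in the fit. The trifunctional protein subunits HADHA and HADHB, which like ACAA2 and SLC25A20 have annotated pseudogenes that can take reads from the count, had LFCs of −0.04 and 0.04 in EC vs. control. HADHB was at 106.1, 105.1 and 103.9 CPM in the control, 102.1, 99.8 and 95.5 CPM in the PG/VG and 117.2, 106.5 and 101.6 CPM in the EC replicates. Its PG/VG libraries lay below all controls, with an LFC of −0.09 (adjusted p = 0.531), and EC vs. PG/VG had 0.13 (adjusted p = 0.445). The very-long-chain dehydrogenase ACADVL and the short-chain dehydrogenase ACADS had −0.04 and −0.13 in EC vs. control. HADH, ACAA2, ECI1 and DECR1, which carry out the later steps and handle double bonds, lay between −0.04 and 0.14. In the carnitine shuttle, CPT1A, the rate-controlling carnitine palmitoyltransferase, was at 82.7, 86.1 and 57.3 CPM in the control, 95.6, 94.6 and 66.7 CPM in the PG/VG and 82.3, 96.4 and 64.5 CPM in the EC replicates. Its LFC was 0.11 in EC vs. control (adjusted p = 0.361) and 0.19 in PG/VG vs. control (adjusted p = 0.144). CPT2, the inner-membrane transferase, was higher in all EC libraries than in all controls (LFC 0.19, adjusted p = 0.238), and SLC25A20, the carnitine carrier of the inner membrane, had 0.02.

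PLIN2, the protein that coats lipid droplets, was at 107.9, 109.1 and 106.0 CPM in the control, 92.2, 100.4 and 101.9 CPM in the PG/VG and 104.6, 96.2 and 97.8 CPM in the EC replicates. Both treated groups lay below all controls, with LFCs of −0.11 in EC vs. control (adjusted p = 0.333) and −0.13 in PG/VG vs. control (adjusted p = 0.307), which did not pass the test. PDK4, the kinase that turns glucose oxidation down when fatty acids are burned, had 0 to 6 counts per library and was not tested.

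Over the 37 tested members, the median LFC was 0.01 in EC vs. control, −0.02 with PG/VG alone against control and 0.01 in EC vs. PG/VG, against 0.01, 0.01 and 0.00 over all genes tested. The median absolute LFC of the members was 0.08, 0.09 and 0.07, against 0.16, 0.14 and 0.11 over all genes. At an unadjusted p under 0.05 there were 5, 6 and 3 members, where 27.4%, 20.1% and 12.9% of all genes passed that limit. The direction was shared by all 3 batches for 12 members in EC vs. control, 19 in PG/VG vs. control and 7 in EC vs. PG/VG. Among all genes it was shared for 46.1%, 43.5% and 31.3%. The groups did not overlap for 5 members in EC vs. control (PEX2, PHYH, DECR2 and CPT2 higher and PLIN2 lower), where 17.3% of all genes had groups that did not overlap. They did not overlap for 4 in PG/VG vs. control (ECI2, HADHB, ETFA and PLIN2, all lower), where 14.2% did, and for none in EC vs. PG/VG, where 7.91% did.

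The width of the intervals shows how precisely each LFC was estimated in the fit with the batch. They are intervals per gene, not adjusted for the number of genes tested. An interval can thus exclude 0 for a gene that was not called, as for DECR2 in EC vs. control (0.05 to 0.57). In EC vs. control the 95% interval of the LFC lay within 0.5 of 0 for 33 of 37 members, the others being PHYH, PEX7, ACOX2 and DECR2. With PG/VG against control it did for 34, the others being PHYH, PEX7 and ACOX2. In EC vs. PG/VG it did for 35, the others being PHYH and ACOX2.

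**Figure D2:**
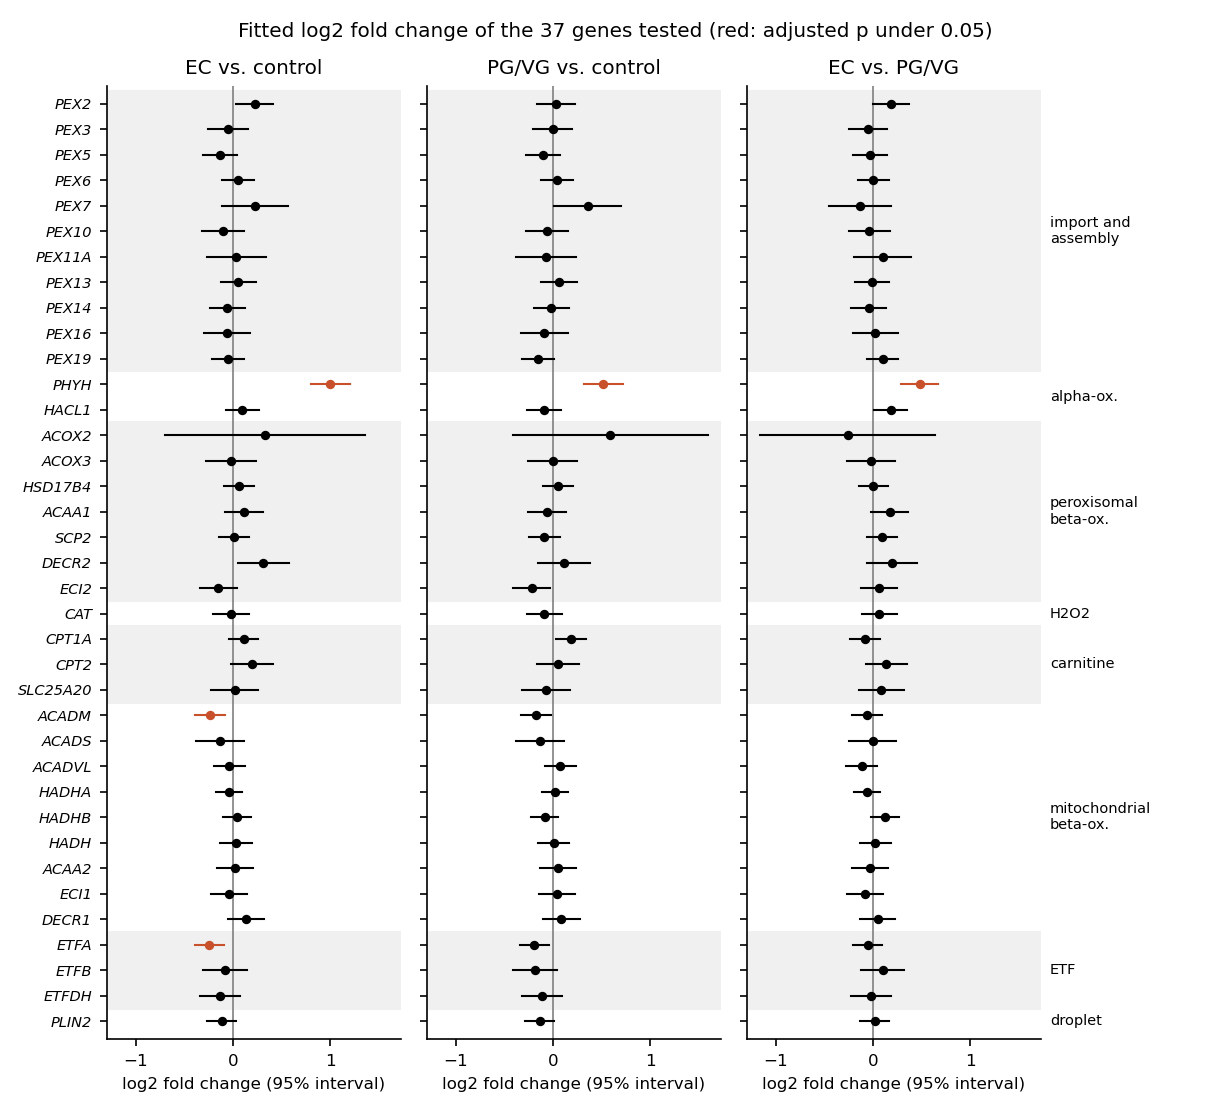
Fitted log2 fold change (horizontal axis) with its 95% interval for each of the 37 genes tested (rows, grouped by role), with a panel each for EC vs. control, for PG/VG vs. control and for EC vs. PG/VG, and with calls at an adjusted p under 0.05 in red. PHYH stands at 1.0, 0.52 and 0.48, while most intervals of the other genes include 0 and ACOX2 has the widest.

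Levels per transcript length, in TPM (transcripts relative to the library total), ordered the members over a wide range. In the controls ACADVL was highest with 328 ± 54.2 TPM (SD, n = 3), followed by HADHA with 189 ± 6.12, ETFA with 147 ± 4.76, PLIN2 with 137 ± 0.709 and HADHB with 127 ± 1.43, and each of the first 4 lay further from the next than either SD. ECI1 came next with 121 ± 43.4 TPM, which its spread does not separate from HADHB or from HSD17B4 with 98.6 ± 7.28. At the low end were PEX7 with 7.08 ± 0.754 TPM, PEX11A with 5.76 ± 0.561 and ACOX2 with 0.398 ± 0.179. PHYH was in the middle of the order, at 30.3 ± 10.9 TPM in the control, 46.9 ± 21.1 in PG/VG and 63.5 ± 17.4 in EC. In the control it did not differ beyond the spread from ACAA2 (30.5 ± 8.78) or PEX5 (26.1 ± 1.27). HACL1 was at 40.8 ± 5.17 TPM in the control, so that its control mean was above that of PHYH, and at 46.2 ± 3.98 TPM in EC, below the EC mean of PHYH.

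**Figure D3:**
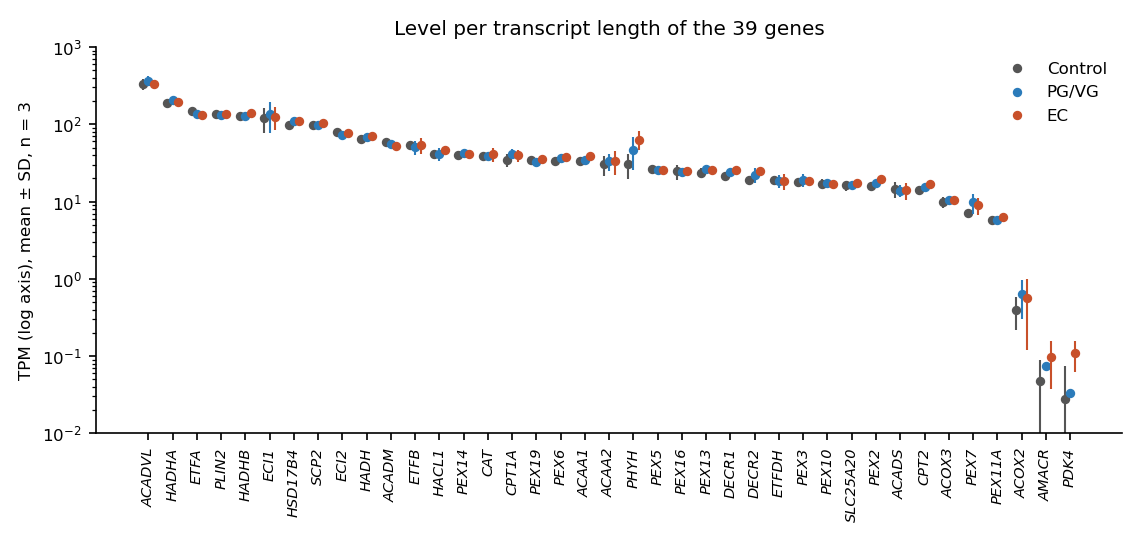
Level of the 39 genes in TPM on a log axis, as mean ± SD of 3 libraries for control, PG/VG and EC, ordered by the control mean, with bars that reach below 0.01 ended there. In the control, 36 genes lie between PEX11A at 5.76 and ACADVL at 328 TPM, ACOX2 and the untested AMACR and PDK4 lie below 1, and PHYH shows the widest step between conditions among the genes above 1.

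Batch 4 stood apart from batches 2 and 3. The median absolute log2 difference of the members between batch 4 and the others was 0.21, larger than their median absolute LFC of 0.08 in EC vs. control, while over all genes these medians were 0.22 and 0.16. All 3 batch 4 libraries lay below the other 6 for 13 of the 37 members (35.1%), where this was so for 14.6% of all genes tested. They lay above the other 6 for 3 members (8.11%), PEX3, HACL1 and ACOX2, where 14.5% of all genes did. The 13 low members were 6 of 9 genes of mitochondrial beta-oxidation (ACADM, ACADS, ACADVL, HADH, ACAA2 and ECI1), ETFB, ETFDH, CPT1A, CAT, PEX6, PEX10 and PEX16. These counts are a description of 1 batch, with no test.

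ECI1, which moves double bonds into place for beta-oxidation, was at 44.5, 38.8 and 43.2 CPM in the batch 4 libraries of control, PG/VG and EC. The other 6 libraries had 84.8 to 111.2 CPM, and the mean log2 difference over the conditions was −1.15. ACAA2, the last thiolase of the mitochondrial cycle, was at 24.6, 25.6 and 22.3 CPM in batch 4 and at 41.2 to 50.3 CPM in the others, a mean log2 difference of −0.88. ACADS had a mean log2 difference of −0.66, ETFDH −0.55, ETFB −0.54 and CPT1A −0.51. PHYH went the other way, with 0.81 in the control, 0.94 in PG/VG and 0.55 in EC and a mean of 0.77, and ACOX2 had 1.06 on its few counts. The median over the 9 tested genes of mitochondrial beta-oxidation was −0.29 and over the 3 genes of electron transfer −0.54, against 0.02 over the 11 peroxins and −0.0033 over all genes tested. Epithelial keratins moved with the batch as well, since KRT7 had 387.6 to 510.4 CPM in batch 4 and 701.4 to 1037 CPM elsewhere. KRT8 had 751.8 to 853.7 against 906.2 to 1174 CPM and KRT18 301.3 to 393.4 against 411.8 to 627.7 CPM, while KRT19 overlapped (16.8 to 22.5 against 17.2 to 23.1 CPM). Their part in these differences was not tested.

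**Figure D4:**
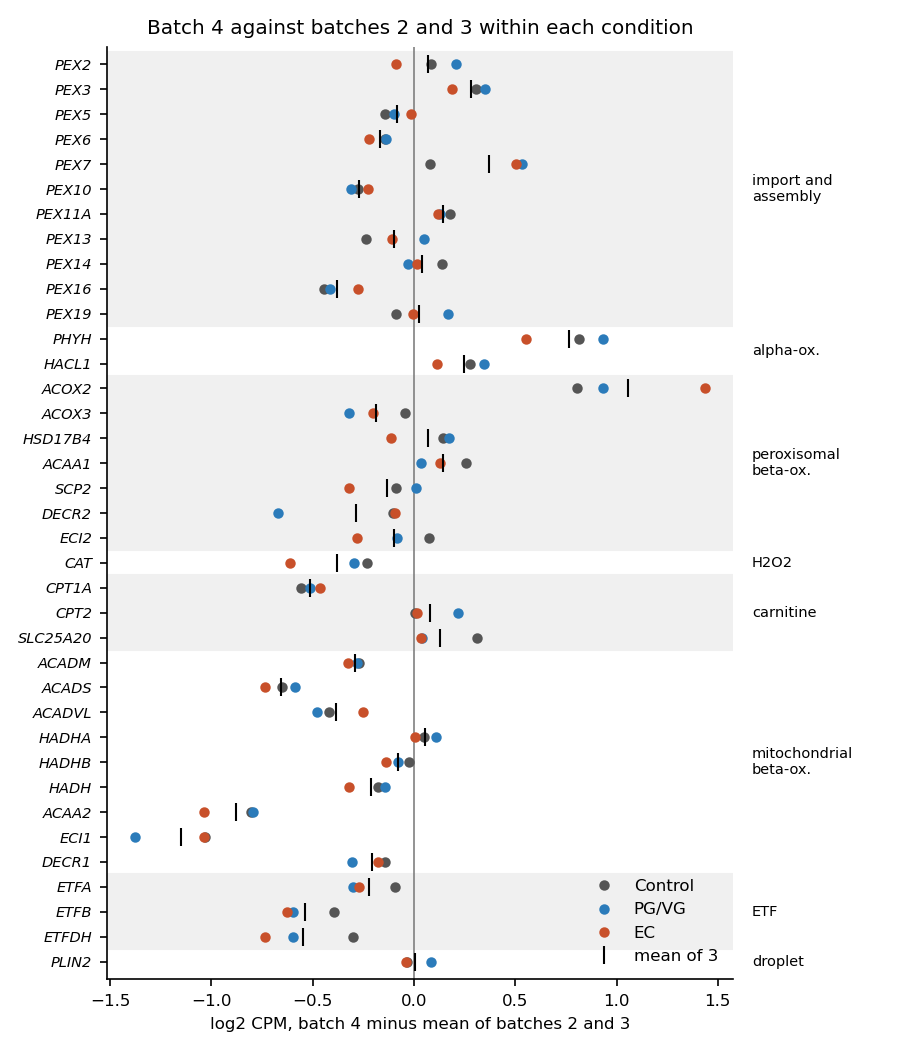
Log2 CPM of the batch 4 library minus the mean of batches 2 and 3 (horizontal axis) for each of the 37 genes tested (rows, grouped by role), with a point for each condition and a black line for their mean. The mitochondrial and electron transfer genes lie mostly left of 0 in all 3 conditions, with ECI1 farthest at −1.15, and PHYH and ACOX2 lie to the right.

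Likeness was measured as Pearson's r between members over the 9 libraries, after the mean of each batch was subtracted, and is a description of libraries that share conditions and batches. The members most like PHYH were PEX2 (r = 0.81), CPT2 (r = 0.76) and DECR1 (r = 0.68). ACADM and ETFA were each other's closest members (r = 0.86), followed for ACADM by ACADS (r = 0.72) and PLIN2 (r = 0.65) and for ETFA by ECI2 (r = 0.82) and ACADS (r = 0.80). HACL1 was most like HADHB (r = 0.89), SCP2 (r = 0.85) and PEX2 (r = 0.81), and PHYH was not among its closest 3.

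Other genes of the same pathways were read from 3 lists. Of 38 further peroxisomal genes tested, 4 rose in EC vs. control and none fell, where 8.07% of all genes rose and 5.38% fell. IDH1, an NADP-dependent dehydrogenase of peroxisomes and cytosol, was at 45.9, 43.2 and 61.0 CPM in the control, 50.6, 51.4 and 73.0 CPM in the PG/VG and 69.7, 65.0 and 80.4 CPM in the EC replicates, so that EC lay above all controls. Its LFC was 0.53 in EC vs. control (adjusted p = 9.26e-05), 0.22 in PG/VG vs. control (adjusted p = 0.115) and 0.31 in EC vs. PG/VG (adjusted p = 0.0508). The EC vs. PG/VG difference of IDH1 passed the threshold in 8 of 11 other settings (LFC 0.26 to 0.40, adjusted p from 0.000861 to 1) and in 3 of 9 fits with a library left out, without control replicate 2 (adjusted p = 0.0462) or 4 (adjusted p = 0.0335) or EC replicate 4 (adjusted p = 0.0374). TYSND1, the protease that trims imported enzymes including the thiolase, had an LFC of 0.53 in EC vs. control (adjusted p = 0.000569).

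Under PG/VG alone 2 of these 38 genes rose, where 2.63% of all genes rose. TYSND1 was among them, with an LFC of 0.37 (adjusted p = 0.0239). Its call was lost without control replicate 2, 3 or 4 or PG/VG replicate 3 or 4 (LFC 0.29 to 0.41, adjusted p from 0.0562 to 0.164).

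Of 34 further genes of fatty acid uptake, activation and mitochondrial oxidation, 3 rose and 2 fell in EC vs. control. Of all genes tested, 8.07% rose and 5.38% fell. ACSL5, an acyl-CoA synthetase, was at 7.81, 6.63 and 7.26 CPM in the control, 9.71, 9.14 and 8.79 CPM in the PG/VG and 13.8, 15.4 and 9.92 CPM in the EC replicates. Every EC library was above every control and every PG/VG library, and the LFC was 0.84 in EC vs. control (adjusted p = 0.000256) and 0.49 in EC vs. PG/VG (adjusted p = 0.0715). The latter passed in 5 of 11 other settings (LFC 0.46 to 0.63, adjusted p from 0.0111 to 1) and without control replicate 4 (adjusted p = 0.0443) or EC replicate 4 (adjusted p = 0.0296). ACSL4, a synthetase that prefers polyunsaturated chains, fell by 0.32 on the log2 scale (adjusted p = 0.0033). SLC27A3, a fatty acid transport protein, rose by 0.45 (adjusted p = 0.0201), a call lost without any 1 of the control libraries or EC replicate 2 or 4 (LFC 0.38 to 0.46, adjusted p from 0.0673 to 0.102). ACACB, which makes the malonyl-CoA that restrains CPT1A, rose by 0.42 (adjusted p = 0.0139), a call lost without control replicate 2 or 3 or EC replicate 3 or 4 (LFC 0.33 to 0.41, adjusted p from 0.0687 to 0.112). The other fall was ACAD9, a dehydrogenase-like assembly factor of complex I, named after its values were seen, with an LFC of −0.25 (adjusted p = 0.0468). It was lost without control replicate 3 or 4, PG/VG replicate 2 or 4 or EC replicate 3 or 4 (LFC −0.30 to −0.14, adjusted p from 0.0536 to 0.34). With PG/VG against control none of these 34 passed edgeR's test on all libraries, and 4 had an unadjusted p under 0.05. In that comparison 4.54% of all genes passed and 20.1% had an unadjusted p under 0.05. ACSL4 was close to the threshold there (LFC −0.23, adjusted p = 0.0522) and passed in 7 of 11 other settings (LFC −0.32 to −0.21, adjusted p from 0.000592 to 0.686). It also passed without control replicate 4 (adjusted p = 0.0397), PG/VG replicate 4 (adjusted p = 0.042) or EC replicate 2 (adjusted p = 0.0189).

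Of 31 regulators, droplet and fuel-switch genes, 1 rose and 2 fell in EC vs. control, where 8.07% of all genes rose and 5.38% fell. ANGPTL4, a secreted inhibitor of lipoprotein lipase and a common PPAR target, was at 3.05, 3.10 and 5.57 CPM in the control, 5.24, 6.29 and 11.7 CPM in the PG/VG and 5.36, 5.32 and 17.1 CPM in the EC replicates. Within each batch both treated libraries were above the control, with an LFC of 1.15 in EC vs. control (adjusted p = 0.000127) and 0.98 in PG/VG vs. control (adjusted p = 0.0024). It was the 1 gene of the 31 that rose in PG/VG vs. control, where 2.63% of all genes rose. The receptor PPARD had an LFC of −0.25 in EC vs. control (adjusted p = 0.0322), lost without control replicate 2 or 3 or EC replicate 2 or 3 (LFC −0.27 to −0.21, adjusted p from 0.0723 to 0.217), and the coactivator PPRC1 had −0.33 (adjusted p = 0.00422). In EC vs. PG/VG none of the 103 genes of the 3 lists passed edgeR's test on all libraries with TMM scaling, and 8 had an unadjusted p under 0.05. Of all genes, 0.855% passed and 12.9% had an unadjusted p under 0.05. In the other settings 0 to 4 of the 103 passed, IDH1 in 8 settings and ACSL5 in 5, and with a library left out 0 to 2. A count of 4 came with no filter on low counts, ComBat-Seq and DESeq2, or a GC and length trend removed. Those settings called 309, 621 and 557 of all genes, in place of 137 in the main fit. The fits with a library left out called 32 to 208.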

How the data were processed

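Poly(A) RNA of 9 libraries was sequenced. The authors used fastp for trimming, STAR for alignment to GRCh38.p12 and, for counting on exons (Ensembl release 111), featureCounts of Subread 2.0.4 (name, version and build per the submitters' processing notes), leaving out multi-mapping and multi-overlapping reads, so genes with close copies or overlaps are undercounted. The deposited values are raw counts, and no column was left out. Symbols come from GENCODE release 44, which matched 62666 of 63187 identifiers. Every gene that reached 10 counts in 3 or more libraries entered edgeR 4.0.16 in R 4.3.3 (TMM, robust dispersions, 1 quasi-likelihood fit with condition and batch, Benjamini-Hochberg adjustment). The SE is an approximation, the size of the LFC over the root of its F statistic. TPM uses the length of the canonical transcript. The batch labels pair the libraries. Deviations from the condition means correlated at 0.65 to 0.71 within batch 4 and at −0.54 to −0.42 between batch 4 and the others. Within batches 2 and 3 they correlated at 0.33 to 0.40, against 0.28 to 0.43 between batches 2 and 3. The deviations of a condition sum to 0, so the values between batches are partly fixed by those within batches. The correlations thus set batch 4 apart but do not tell batch 2 from batch 3. Replicates differed by more than sampling noise. The scripts were tested on simulated data.

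The members and lists were chosen with earlier results of these data known. Named were called members, up to 12 members in all by smallest unadjusted p, and, in each further list and comparison, up to 4 called genes by absolute LFC whose higher group had 20 or more counts per library. Alternatives were DESeq2 1.42.0, ComBat-Seq of sva 3.50.0 with DESeq2, RLE or library-size scaling, other filters, no replicate block, the compared groups alone, a threshold of 0.01 and each library left out. After the data were seen, thinned counts, removal of a GC and length trend (mgcv 1.9.3) and batch 4 left out were added. Some called genes of the further lists are not reported here by name. Protein ends were not analysed here.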

Additional observations from a re-analysis of the deposited data

How the results depend on the processing

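The number of members called in EC vs. control, 3, fell to 1 at an adjusted p under 0.01 and with batch 4 left out, and to 0 without the replicate block. It was 4 with the GC and length trend removed (PHYH higher, ACADM, ETFA and PEX5 lower), where 3837 of all genes were called. It was 2 with library-size scaling (PEX2 and PHYH higher), where 2349 were called. With no filter on low counts, and with the compared groups alone, it was also 2 (PHYH higher, ETFA lower). Those fits called 2061 and 2102 of all genes, where the main fit called 2157. The number of members called ranged from 1 to 3 with each library left out, with 1 (PHYH) without control replicate 3 or 4 or EC replicate 3 or 4. In PG/VG vs. control the 1 call became 0 without the block and 0 to 1 with each library left out. With ComBat-Seq and DESeq2 it became 4 (PHYH and CPT1A higher, ACADM and ETFA lower), where 1682 of all genes were called. In EC vs. PG/VG it became 0 without the block and ranged from 0 to 1. The cause was not tested. With each library left out, the median LFC of the members ranged from −0.080 (without EC replicate 2) to 0.050 in EC vs. control, from −0.053 to 0.0099 in PG/VG vs. control and from −0.033 to 0.053 in EC vs. PG/VG. Over the other settings it ranged from −0.046 to 0.072, −0.060 to 0.013 and −0.024 to 0.047 in the same order, lowest each time with the GC and length trend removed, so its sign is not determined. The median over all genes in EC vs. control was −0.050 with that trend removed and 0.068 with library-size scaling, which gave the members 0.072. Without EC replicate 2 the median over all genes was 0.0075. No direction of a called gene reversed. PHYH kept its calls in all 3 comparisons under RLE and library-size scaling, both filters, both DESeq2 routes, thinning and removal of the GC and length trend, and with batch 4 left out. Counts of all genes called without the block were 16, 1 and 1, in place of 2157, 727 and 137. With batch 4 left out they were 1216, 324 and 80. With each library left out they ranged from 1162 to 2172, from 192 to 1084 and from 32 to 208. With 3 libraries per group, members at low counts such as ACOX2 and PEX7 have intervals wider than most changes seen here, and a gene that was not called is not shown to be unchanged.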
